A study of Mus musculus with 4 samples.

Results

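The BCL2 family genes described here are 10 genes of the mitochondrial pathway of cell death, 5 anti-apoptotic (Bcl2, Bcl2l1, Mcl1, Bcl2a1b and Bcl2a1d) and 5 pro-apoptotic (Bcl2l11, Bbc3, Pmaip1, Bax and Bak1). They were taken by symbol from a table of 21146 genes, and all 10 had a row. It comes from RNA sequencing of T cells that had entered tumours in C57BL/6 mice and were collected at day 21 after inoculation. The libraries were 2 labelled HPK1-/- (Map4k1 knockout, here KO) and 2 labelled wild type (WT), prepared with a NEBNext Ultra kit from RNA extracted in Trizol. Map4k1 encodes HPK1, a kinase of blood cells that restrains T cell receptor signalling, and the comparison asks which genes of these T cells differ when it is disrupted. The labels gave neither the knockout allele, the tumour, the gate used to isolate the T cells, the sex and age of the mice, nor whether each library stands for its own animal. The spread behind every p-value is that of the sequenced libraries and could be technical alone.

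BCL2 family proteins decide whether the outer mitochondrial membrane stays intact. BAX and BAK form the pores that release cytochrome c, anti-apoptotic proteins such as BCL-2, BCL-XL, MCL-1 and A1 hold BAX and BAK in check, and BH3-only proteins such as BIM, PUMA and NOXA occupy the anti-apoptotic proteins or activate the effectors. In T cells BIM removes activated cells at the end of a response, MCL-1 and BCL-2 keep cells alive with support from cytokines, and A1 is known as a gene that antigen receptor signals induce through NF-kappa B.

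The genes whose values differed most, Bcl2a1b and Bcl2a1d, are 2 of the A1 gene copies that the mouse carries on chromosome 9, with Bcl2a1a and the shorter Bcl2a1c. On GRCm38 with GENCODE M21, Bcl2a1d lies at chr9:88723285-88731914 (minus strand), Bcl2a1a at chr9:88956900-88962419 and Bcl2a1b at chr9:89199209-89207827 (both plus strand). Bcl2a1c lies well apart from them, at chr9:114330135-114330578 (plus strand). The annotation gives 1 transcript each for Bcl2a1d (863 bases), Bcl2a1a (819 bases) and Bcl2a1b (817 bases). The transcripts of Bcl2a1b and Bcl2a1d matched at 810 of 817 aligned bases (99.1%), those of Bcl2a1a and Bcl2a1d at 809 of 819 (98.8%), and those of Bcl2a1a and Bcl2a1b at 802 of 817 (98.2%). Of all 100-base windows in the Bcl2a1d transcript, 54.7% also occurred in another A1 copy, against 43.5% for Bcl2a1a and 31.1% for Bcl2a1b. The Bcl2a1b transcript also shared 401 of its 817 bases with the exons of Gm29094, an overlapping gene on the same strand. How the authors' counting divided such shared reads is not given in the sources used here, so the split between the copies is uncertain.

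The copies also share their upstream sequence, which is shown because the 3 genes moved together. The stretches below come from RefSeq promoter windows (build GRCm38.p6) and end before the start that GENCODE annotates for each gene, on the strand of the gene. Capitals mark TGANTCA, a looser form of the AP-1 element (TGACTCA or TGAGTCA), and GAGGAAGT, an element of the ETS factor type.
Bcl2a1a (chr9:88956714-88956855, plus strand): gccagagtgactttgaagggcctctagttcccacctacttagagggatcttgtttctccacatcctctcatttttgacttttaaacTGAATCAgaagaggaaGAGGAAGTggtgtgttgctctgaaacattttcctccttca
Bcl2a1b (chr9:89199023-89199164, plus strand): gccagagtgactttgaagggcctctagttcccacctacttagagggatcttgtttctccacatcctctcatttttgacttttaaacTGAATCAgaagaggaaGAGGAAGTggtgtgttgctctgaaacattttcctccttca
Bcl2a1d (chr9:88731915-88732050, minus strand): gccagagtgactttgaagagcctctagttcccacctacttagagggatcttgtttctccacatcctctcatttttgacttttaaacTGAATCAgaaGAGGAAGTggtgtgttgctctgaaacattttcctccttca
The stretches of Bcl2a1a and Bcl2a1b were identical over 142 bases. That of Bcl2a1d matched them at 135 of 136 aligned bases and lacked 6 bases before the ETS element.

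Searched on both strands over the 32851 RefSeq promoter windows of 300 bases (250 before and 50 after a start), TGANTCA, which takes in the strict AP-1 forms, was present in 7.81% and GAGGAAGT in 3.20%. The letters to search were chosen after these promoters had been read. The strict AP-1 letters, TGACTCA or TGAGTCA, were present in 5.20% of windows. They were in no window searched for these genes or for the other A1 copies. Windows were searched for 9 of the 10 genes, all but Pmaip1. TGANTCA was found in those of Bcl2a1b and Bcl2a1d, and GAGGAAGT in those of Bcl2a1b, Bcl2a1d and Bak1. The NF-kappa B consensus, present in 4.51% of all windows, had a match in 1 window each of Bbc3 and Bcl2l1, where the Bbc3 matches overlapped one another, and in none of the A1 copies. The FOXO element TGTTTAC (3.65% of windows) and the EGR element GCGGGGGCG (2.91%) each had a match in windows of Bcl2l11 and of Bbc3. A match or its absence describes the letters in these windows only.

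The values were FPKM, a fragment count scaled by transcript length and library size, as the authors deposited them. Differences were tested with limma on log2(FPKM + 1), KO minus WT, over the 11947 genes that reached 1 FPKM in 2 or more libraries, with Benjamini-Hochberg adjustment over all of them and a threshold of 0.05. Fold changes on this scale understate the change of low genes. Map4k1 itself was at 20.6 and 26.5 FPKM in KO, against 48.9 and 41.1 FPKM in WT, lower in both KO libraries but not absent (log2 fold change -0.91, SE 0.15, adjusted p = 0.0134). FPKM totals were 871584 and 878585 in KO and 975047 and 975107 in WT. Estimated from the steps between low values, about 22400000 and 23200000 fragments were counted in KO and about 21500000 and 20200000 in WT. The summed FPKM of 10 T cell markers, among them Cd3e, Lck and Trac, was 2090 to 2141 in KO and 1916 to 1976 in WT.

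All 10 BCL2 family genes passed the filter on low values and were tested. In KO, 4 were lower (Bcl2a1d, Bcl2a1b, Bbc3 and Mcl1), 6 did not pass, and none was higher. Among all tested genes 28.4% passed, 13.0% lower (1551 genes) and 15.4% higher (1839 genes). At an unadjusted limma p under 0.05, 5 members were lower and 0 higher, against 19.4% lower and 23.8% higher among all tested genes. Both KO libraries were below both WT libraries for 7 of the 10 genes and above them for none, against 31.4% and 38.6% of all tested genes (70.0% without overlap in either direction). The median log2 fold change was -0.59 for the anti-apoptotic genes, -0.21 for the pro-apoptotic genes and 0.04 for all tested genes. Lower genes were found on both sides of the family, 3 of 5 anti-apoptotic and 1 of 5 pro-apoptotic genes. Bcl2a1b and Bcl2a1d, which count as 2 of them, are near-identical copies whose reads can be shared, so they may not be separate observations. Every library was also scaled to the same FPKM total, with mitochondrial, globin and immunoglobulin genes left out of the totals. The median of all tested genes then moved to 0.18, with 3475 genes higher and 1118 lower. The same count of 4 members was lower and none higher. On that scale both KO libraries were below both WT libraries for 5 members, above them for 1 (Bcl2) and overlapped for 4, against 20.7% below and 52.9% above among all tested genes. Without KO replicate 1 the count of lower genes was 2, and it was also 2 with no filter on low values (21146 genes tested). The 2 genes that passed in both cases were Bcl2a1b and Bcl2a1d.

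**Figure D1:**
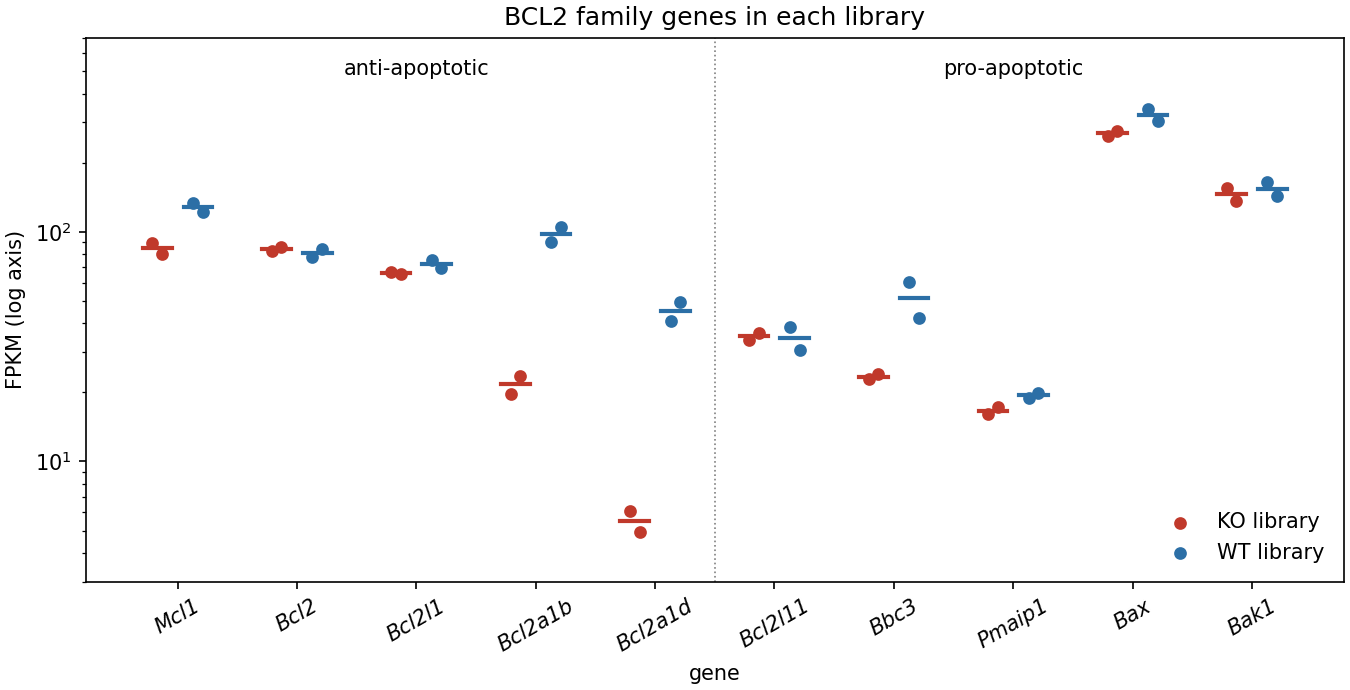
FPKM on a log axis of the 10 genes in each library, KO (red) left of WT (blue), with short lines at the mean of the 2 libraries. Bcl2a1b and Bcl2a1d stand far lower in KO, Mcl1 and Bbc3 are lower by smaller amounts, and the points of Bcl2, Bcl2l11 and Bak1 overlap between genotypes.

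The A1 copies showed the deepest losses. Bcl2a1b, which encodes a copy of the anti-apoptotic protein A1, was at 19.6 and 23.6 FPKM in KO, against 90.3 and 105 FPKM in WT. Its mean was 21.6 ± 2.84 FPKM in KO and 97.7 ± 10.5 FPKM in WT (SD, n = 2 each), and the log2 fold change was -2.13 (SE 0.13, limma adjusted p = 0.00126). The KO level was 22.1% of the WT level, and the 2 libraries of each genotype lay close together beside the gap between genotypes.

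Bcl2a1d, a further A1 copy, was at 6.09 and 4.95 FPKM in KO, against 40.9 and 49.6 FPKM in WT. Its log2 fold change was -2.83 (SE 0.14, limma adjusted p = 0.000735), with a KO mean of 12.2% of the WT mean. These levels correspond to about 82.2 and 69.3 fragments in KO and 530 and 604 fragments in WT, so counting error was small beside the difference. Of the 11947 tested genes, 35 had a lower fold change than Bcl2a1d and 68 a lower one than Bcl2a1b. Both genes passed under every alternative run, with adjusted p of at most 0.0323.

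Since reads of the copies cannot be cleanly told apart, their sum is the firmer value. Bcl2a1a, Bcl2a1b and Bcl2a1d together had 28.1 and 30.9 FPKM in KO, against 147 and 169 FPKM in WT, a 5.35-fold lower mean in KO. With all 4 copies summed to 1 row before the fit, the log2 fold change was -2.38 (SE 0.10, limma adjusted p = 0.000583). Bcl2a1a, which is no member of the set of 10, was at 2.40 and 2.32 FPKM in KO and 15.7 and 14.3 FPKM in WT (log2 fold change -2.25, SE 0.11, adjusted p = 0.000735). Bcl2a1c was listed at 0 in both KO libraries and in 1 WT library, and at 0.530 FPKM in the other. The ratio of Bcl2a1d to Bcl2a1b was 0.310 and 0.209 in KO and 0.453 and 0.471 in WT, so the copies were not lower in equal proportion as the authors counted them.

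Mcl1, which encodes the short-lived survival protein MCL-1, was at 89.0 and 80.4 FPKM in KO, against 134 and 122 FPKM in WT. Both KO values were below both WT values, and the KO mean was 66.2% of the WT mean. The log2 fold change was -0.59 (SE 0.09, limma adjusted p = 0.0120). The adjusted p ranged from 0.00912 to 0.0776 over the alternatives, and it missed the threshold without KO replicate 1 (0.0592), without KO replicate 2 (0.0776) and with no filter (0.0554).

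The other anti-apoptotic genes did not pass. Bcl2, whose protein keeps resting and memory lymphocytes alive, was at 82.6 and 85.8 FPKM in KO, against 77.7 and 84.3 FPKM in WT. The genotypes overlapped, though with every library scaled to the same total both KO values were above both WT values, and the 95% interval of the log2 fold change ran from -0.15 to 0.26 (adjusted p = 0.637). Bcl2l1, which encodes BCL-XL, was at 66.8 and 65.7 FPKM in KO and at 75.3 and 69.7 FPKM in WT, with an interval from -0.33 to 0.07 (adjusted p = 0.274). Its KO mean was 91.4% of its WT mean as deposited, and its fold change turned to 0.032 with every library scaled to the same total.

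**Figure D2:**
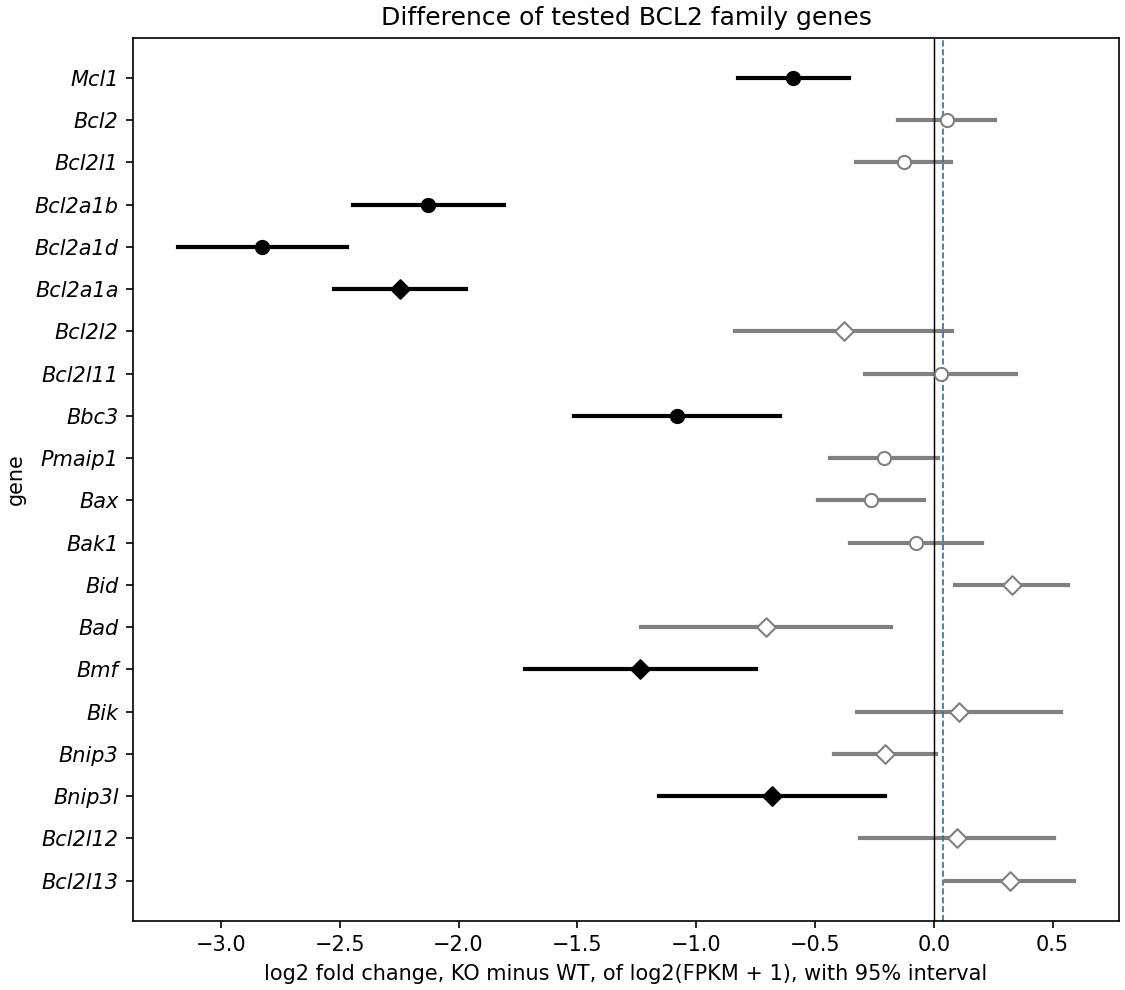
Log2 fold change of log2(FPKM + 1), KO minus WT, with its 95% interval, for the 10 genes (circles) and the 10 further family genes that were tested (diamonds). Filled symbols passed the threshold, open symbols did not, and the dashed line marks the median of all tested genes. The 3 A1 copies lie between -2.83 and -2.13, apart from all other family genes drawn.

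Among the BH3-only genes, Bbc3 fell, and Bcl2l11 and Pmaip1 did not pass the test. Bbc3 encodes PUMA, a killer protein induced by p53, and was at 22.8 and 24.0 FPKM in KO, against 60.3 and 42.3 FPKM in WT. The WT libraries differed 1.43-fold from each other, yet both lay above both KO libraries. The KO mean was 45.5% of the WT mean, and the log2 fold change was -1.08 (SE 0.17, limma adjusted p = 0.0123). Its adjusted p ranged from 0.0100 to 0.0752 over the alternatives and missed the threshold without KO replicate 1 (0.0620) and with no filter (0.0752).

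Bcl2l11, which encodes BIM, was at 33.8 and 36.2 FPKM in KO, against 38.4 and 30.6 FPKM in WT. Both KO values lay between the WT values. The interval of its log2 fold change ran from -0.29 to 0.35 (adjusted p = 0.882), a range that takes in changes in either direction. Pmaip1, which encodes NOXA, a BH3-only protein that binds MCL-1 and A1, was at 16.0 and 17.2 FPKM in KO and at 19.0 and 19.8 FPKM in WT. The genotypes did not overlap as deposited, but the difference did not pass (log2 fold change -0.21, 95% interval -0.44 to 0.02, limma adjusted p = 0.136). With every library scaled to the same total, Pmaip1 was at 17.1 and 18.1 in KO and 17.9 and 18.8 in WT. The genotypes then overlapped, and the log2 fold change was -0.058.

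The effector genes were the most abundant of the 10. Bax was at 262 and 274 FPKM in KO, against 341 and 304 FPKM in WT, without overlap. It did not pass (log2 fold change -0.27, 95% interval -0.49 to -0.04, adjusted p = 0.0768), and its adjusted p was 0.0396 without WT replicate 2, in a range of 0.0396 to 0.381 over the alternatives. Bak1 was at 156 and 136 FPKM in KO and at 165 and 143 FPKM in WT, and the genotypes overlapped (log2 fold change -0.08, or 0.085 with every library scaled to the same total, 95% interval -0.35 to 0.20, adjusted p = 0.639). Reads of Bax and Bak1 can also be shared with overlapping genes, since Gm45808 covers 192 of 1576 exonic bases of Bax on the same strand and Ggnbp1 covers 614 of 2407 exonic bases of Bak1 on the opposite strand. Ggnbp1 was at 0.783 to 1.29 FPKM in KO and 1.28 to 1.502 FPKM in WT.

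Since FPKM is a value per length, the levels of the genes can be set in order. In KO the order by mean was Bax, Bak1, Mcl1, Bcl2, Bcl2l1, Bcl2l11, Bbc3, Bcl2a1b, Pmaip1 and Bcl2a1d. Among neighbours the values of Mcl1 and Bcl2 overlapped, as did those of Bbc3 and Bcl2a1b, and all other neighbours were apart. In WT the order was Bax, Bak1, Mcl1, Bcl2a1b, Bcl2, Bcl2l1, Bbc3, Bcl2a1d, Bcl2l11 and Pmaip1, with an overlap only between Bbc3 and Bcl2a1d. Bcl2a1b thus stood above Bcl2 in both WT libraries and below Bcl2l11 in both KO libraries.

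The balance of the repertoire was described by sums of FPKM, which have no test here because the genes were chosen with earlier results known. The 5 anti-apoptotic genes summed to 264 and 260.4 FPKM in KO, against 418 and 431 FPKM in WT. The 5 pro-apoptotic genes summed to 491 and 488 FPKM in KO and 624 and 539.7 FPKM in WT. The anti-apoptotic sum was thus 1.62-fold lower in KO and the pro-apoptotic sum 1.19-fold lower as deposited. The log2 difference of the pro-apoptotic sum, -0.25, was -0.14 without WT replicate 1 and -0.086 with every library scaled to the same total, where the sums were 522 and 514 in KO and 589.5 and 513 in WT and overlapped.

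The ratio of the anti-apoptotic to the pro-apoptotic sum was 0.538 and 0.534 in KO and 0.670 and 0.798 in WT. The genotypes did not overlap, and the WT libraries differed from each other more than the KO libraries did. Most of the pro-apoptotic sum was Bax and Bak1. Over the BH3-only genes Bcl2l11, Bbc3 and Pmaip1 alone, the ratio was 3.64 and 3.37 in KO and 3.55 and 4.65 in WT. On that measure the genotypes overlapped. With Bcl2, Bcl2l1 and Mcl1 alone in the numerator, the ratio was 0.486 and 0.476 in KO and 0.460 and 0.511 in WT, and the genotypes overlapped. Taken singly over the pro-apoptotic sum, Mcl1 was at 0.181 and 0.165 in KO and 0.215 and 0.226 in WT, lower in KO without overlap. Bcl2 was at 0.168 and 0.176 in KO and 0.125 and 0.156 in WT, and Bcl2l1 at 0.136 and 0.135 in KO and 0.121 and 0.129 in WT, both higher in KO without overlap.

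**Figure D3:**
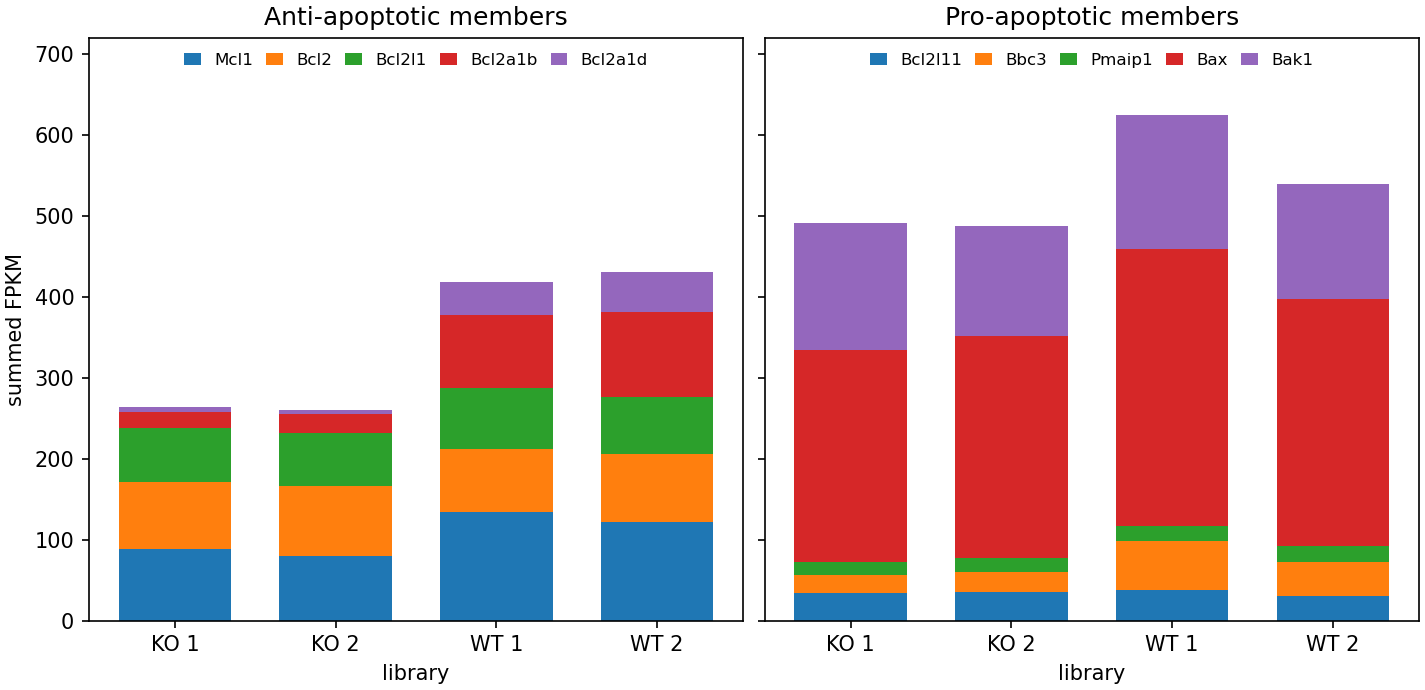
Stacked FPKM of the 5 anti-apoptotic genes (left) and the 5 pro-apoptotic genes (right) in each library, from an axis that starts at 0. The bands of Bcl2a1b and Bcl2a1d shrink to 9.73% and 10.98% of the anti-apoptotic sum in KO, against 31.4% and 35.9% in WT, while the Bax and Bak1 bands make up most of the pro-apoptotic bar in every library.

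The make-up of the anti-apoptotic sum differed with it. Bcl2a1b and Bcl2a1d together held 10.4% ± 0.882 of the sum in KO and 33.6% ± 3.22 in WT (SD, n = 2 each). Bcl2 held 32.1% ± 1.16 in KO and 19.1% ± 0.700 in WT, and Bcl2l1 held 25.3% ± 0.0400 in KO and 17.1% ± 1.30 in WT. The share of Mcl1 overlapped, at 33.7% and 30.9% in KO and 32.0% and 28.3% in WT. On the pro-apoptotic side the share of Bbc3 was 4.64% and 4.91% in KO and 9.66% and 7.84% in WT, and that of Bax was 53.4% and 56.2% in KO and 54.7% and 56.4% in WT.

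Ratios between binding partners followed the same lines. Mcl1 to Bcl2l11 was 2.63 and 2.22 in KO, against 3.49 and 3.99 in WT, and Mcl1 to Pmaip1 was 5.55 and 4.67 in KO, against 7.06 and 6.16 in WT. Bcl2 to Bcl2l11 was 2.44 and 2.37 in KO and 2.02 and 2.76 in WT, with overlap, and Bcl2l1 to Bcl2l11 was 1.97 and 1.82 in KO and 1.96 and 2.28 in WT, also with overlap. Bcl2 to Bax was 0.315 and 0.313 in KO, above the 0.228 and 0.277 in WT. Among the killers themselves, Bcl2l11 to Bbc3 was 1.49 and 1.51 in KO and 0.637 and 0.723 in WT, so BIM transcript exceeded PUMA transcript in both KO libraries and was below it in both WT libraries. An exact permutation test of a single value cannot go below p = 0.333 with 2 libraries against 2, so these ratios are given as values.

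**Figure D4:**
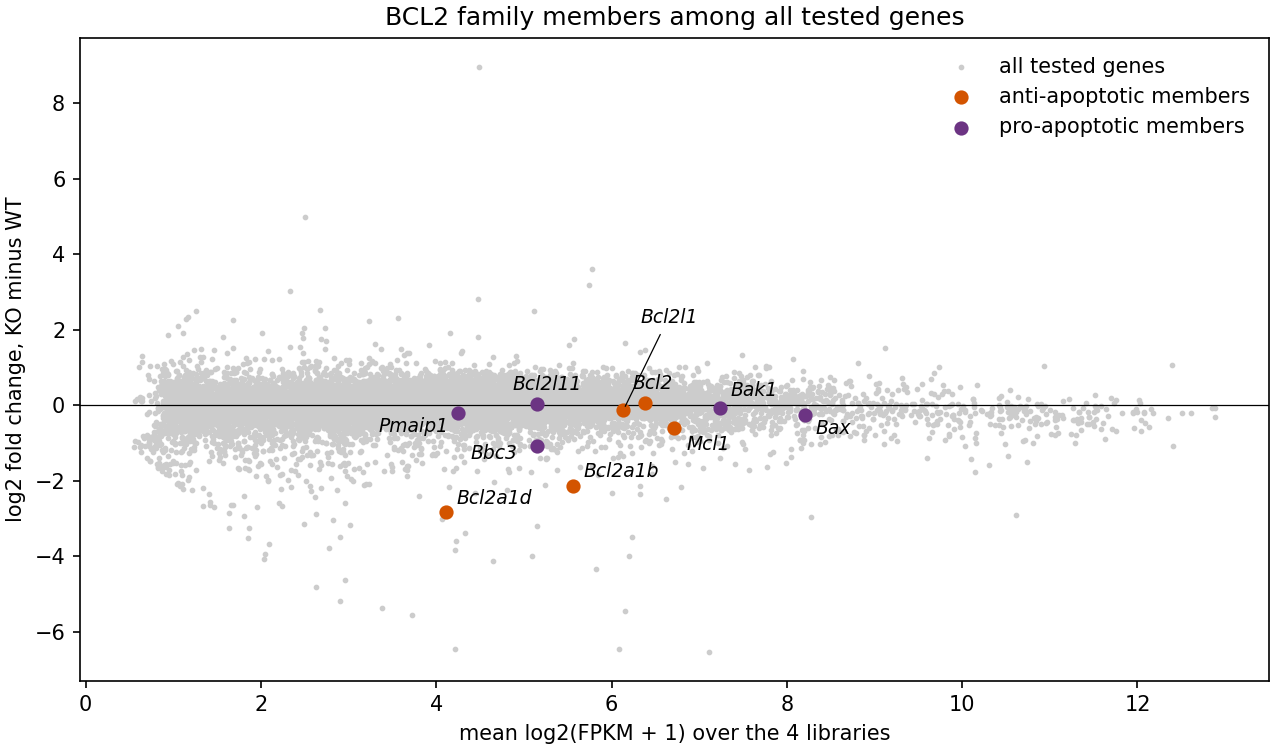
Log2 fold change, KO minus WT, against the mean log2(FPKM + 1) of the 4 libraries for all 11947 tested genes (grey), with the anti-apoptotic genes in orange and the pro-apoptotic genes in purple. Bcl2a1d and Bcl2a1b lie below most of the cloud, and the other 8 genes lie between -1.08 and 0.06.

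Other genes of the BCL2 family were followed from a list of 16, of which 10 were tested. In KO 3 were lower and none higher, against 13.0% and 15.4% of all tested genes, and the median log2 fold change was -0.29. At an unadjusted limma p under 0.05, 4 were lower and 2 higher, against 19.4% and 23.8% of all tested genes. Of the 3 lower genes, Bcl2a1a is an A1 copy whose reads can be shared with Bcl2a1b and Bcl2a1d, so it may not be a separate observation. Besides Bcl2a1a, Bmf was lower, a BH3-only gene, at 0.917 and 0.978 FPKM in KO and 4.37 and 2.91 FPKM in WT (log2 fold change -1.23, SE 0.19, adjusted p = 0.0120). Its adjusted p was 0.0620 without KO replicate 1 and 0.0670 with no filter, in a range of 0.00858 to 0.0670 over the alternatives. Bnip3l, a receptor for the removal of mitochondria, was at 31.6 and 27.6 FPKM in KO and 39.6 and 57.8 FPKM in WT, with an adjusted p of 0.0486 that reached 0.172 among the alternatives. It missed the threshold in 9 of 15 alternatives, among them without WT replicate 2 (0.0640), without KO replicate 1 (0.117) and without KO replicate 2 (0.168).

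The remaining tested genes of that list did not pass. Bid, whose protein links death receptors to mitochondria, was at 23.6 and 21.2 FPKM in KO and 17.4 and 17.8 FPKM in WT (adjusted p = 0.0535, and 0.0160 with every library scaled to the same total, in a range of 0.0160 to 0.322). Bad, a BH3-only gene, was at 11.97 and 17.9 FPKM in KO and 27.5 and 21.8 FPKM in WT (adjusted p = 0.0573, and 0.0401 without KO replicate 2, in a range of 0.0401 to 0.208). Bcl2l13, a mitophagy receptor, was at 57.8 and 56.7 FPKM in KO and 41.7 and 49.99 FPKM in WT (adjusted p = 0.0774, and 0.0260 without WT replicate 2, in a range of 0.0219 to 0.289). Bcl2l2, which encodes BCL-W, was at 5.81 and 8.62 FPKM in KO and 9.20 and 9.87 FPKM in WT. Bnip3, a hypoxia-responsive mitophagy receptor, was at 140.2 and 154 FPKM in KO and 164 and 175 FPKM in WT. Bik was at 1.77 and 1.39 FPKM in KO and 1.20 and 1.59 FPKM in WT, and Bcl2l12 was at 19.9 and 23.6 FPKM in KO and 23.3 and 17.4 FPKM in WT, both with overlap.

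The 6 genes below the filter were Bcl2a1c, Bcl2l10, Bok, Hrk, Bcl2l14 and Bcl2l15. Bcl2l14 was at 0.135 and 0.136 FPKM in KO and 0.462 and 0.888 FPKM in WT, and Bok, an effector-like gene, at 0.184 and 0.321 FPKM in KO and 0.0382 and 0.245 FPKM in WT. Bcl2l10 was listed at 0 in all but 1 WT library (0.0514 FPKM) and Hrk at 0 in all but 1 KO library (0.00865 FPKM). Bcl2l15 was at 0.158 and 0.259 FPKM in KO and 0.191 and 0.0602 FPKM in WT.

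Around the family, 88 genes of 7 lists were tested, the 10 further family genes included. Among all 11947 tested genes 13.0% were lower and 15.4% higher in KO. With every library scaled to the same total, 1118 of all tested genes were lower and 3475 higher. Of the 88 genes, 22 were lower and 7 higher in KO, or 15 lower and 21 higher with that scaling. Without KO replicate 1 the counts were 7 lower and 0 higher, without KO replicate 2 they were 8 lower and 1 higher, and without WT replicate 2 they were 17 lower and 11 higher. Of 20 genes of the apoptosome and caspases, 3 were higher and 2 lower, against 15.4% and 13.0% of all tested genes. Birc5, which encodes survivin, an inhibitor of apoptosis proteins family member that also serves mitosis, was at 219 and 216 FPKM in KO and 141 and 137 FPKM in WT (log2 fold change 0.65, SE 0.07, adjusted p = 0.00572). Cycs, the gene for cytochrome c, was at 85.4 and 103 FPKM in KO and 127 and 129.9 FPKM in WT (adjusted p = 0.0333). The call of Birc5 was lost without KO replicate 1 (adjusted p = 0.0569). The call of Cycs was lost without any 1 of the 4 libraries (up to 0.194).

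Of 14 death receptor pathway genes, 2 were lower (14.3%) and none higher, against 13.0% and 15.4% of all tested genes. At an unadjusted limma p under 0.05, 4 were lower and 1 higher, against 19.4% and 23.8% of all tested genes. Fasl, the ligand by which T cells kill through Fas, was at 24.0 and 23.1 FPKM in KO and 32.2 and 43.5 FPKM in WT (log2 fold change -0.65, SE 0.15, adjusted p = 0.0313, up to 0.121 over the alternatives and 0.116 and 0.117 without KO replicate 1 or 2). Tnf was at 36.3 and 39.0 FPKM in KO and 45.2 and 49.2 FPKM in WT (adjusted p = 0.0490), and its call was lost without any 1 library (up to 0.285).

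The p53 list, which holds Trp53 and 11 genes known as its targets, is of interest beside Bbc3, Bax and Pmaip1, which are p53 targets as well. Of its 11 tested genes, 7 were lower (63.6%) and 2 higher (18.2%) in KO, against 13.0% and 15.4% of all tested genes. Cdkn1a, which encodes the cell cycle inhibitor p21, was at 201 and 209 FPKM in KO and 424 and 396 FPKM in WT (log2 fold change -0.99, SE 0.08, adjusted p = 0.00263), and Perp, a membrane protein gene of this pathway, was at 3.38 and 2.67 FPKM in KO and 10.5 and 10.5 FPKM in WT (log2 fold change -1.52, SE 0.13, adjusted p = 0.00318). Ccng1, a p53-induced cyclin gene, was at 135 and 135 FPKM in KO and 173 and 181 FPKM in WT (adjusted p = 0.0187, and 0.143 and 0.126 without KO replicate 1 or 2). Aen, an apoptosis-enhancing nuclease gene, was among the higher ones, at 113 and 108 FPKM in KO and 80.3 and 78.2 FPKM in WT (adjusted p = 0.0117, and 0.108 and 0.0717 without KO replicate 1 or 2). The other higher gene was Trp53 itself, at 157 and 156 FPKM in KO and 121 and 122 FPKM in WT.

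Of 18 genes known to regulate BCL2 family transcription, 7 were lower (38.9%) and 1 higher (5.56%), against 13.0% and 15.4% of all tested genes. Egr1, an early response factor, was at 4.98 and 5.19 FPKM in KO and 31.5 and 30.8 FPKM in WT (log2 fold change -2.40, SE 0.09, adjusted p = 0.000324). Nr4a1, a nuclear receptor induced by antigen receptor signals, was at 2.47 and 2.83 FPKM in KO and 7.09 and 7.73 FPKM in WT (adjusted p = 0.00481). The NF-kappa B subunit genes were mixed. Nfkb2 was at 25.3 and 23.5 FPKM in KO and 50.04 and 45.2 FPKM in WT (adjusted p = 0.00452), and Rel was at 3.90 and 4.19 FPKM in KO and 6.77 and 6.94 FPKM in WT (adjusted p = 0.0148, and 0.106 and 0.0717 without KO replicate 1 or 2). Relb was also lower, while Nfkb1 and Rela did not pass, with adjusted p of 0.908 and 0.331. Foxo1 and Foxo3, known activators of Bcl2l11 and Bbc3, did not pass either, with adjusted p of 0.699 and 0.440.

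Of 7 survival cytokine receptor genes, 1 was lower and 0 higher at an unadjusted limma p under 0.05, against 19.4% and 23.8% of all tested genes. After adjustment 1 was lower and none higher, against 13.0% and 15.4% of all tested genes. This was Il7r, the interleukin 7 receptor chain that sustains Bcl2 in resting T cells, at 8.77 and 8.47 FPKM in KO and 13.4 and 15.8 FPKM in WT (log2 fold change -0.70, SE 0.11, adjusted p = 0.0130, and 0.0752 and 0.0722 without KO replicate 1 or 2). Of 8 genes tied to the turnover of MCL-1 protein, 2 were higher and 0 lower at an unadjusted limma p under 0.05. Among all tested genes 23.8% were higher and 19.4% lower at that level. After adjustment 1 was higher and none lower, against 15.4% and 13.0% of all tested genes. This was Huwe1, which encodes the ubiquitin ligase MULE, at 75.8 and 72.3 FPKM in KO and 53.2 and 55.0 FPKM in WT (log2 fold change 0.44, SE 0.08, adjusted p = 0.0148, and 0.131 and 0.0841 without KO replicate 1 or 2).

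In bulk samples, fewer cells of a type and less RNA per cell cannot be told apart, and A1 genes are also expressed by myeloid cells, mast cells and other lymphocytes. Of 9 monocyte and macrophage markers 8 had a row, with summed levels of 2.70 to 4.37 FPKM in KO and 4.46 to 4.82 FPKM in WT, most of it Cd68 at 3.98 and 2.39 FPKM in KO and 3.83 and 3.41 FPKM in WT. Lyz2, Csf1r, Adgre1, C1qb and C1qc were each below 0.1 FPKM in every library. Cd14 was at 0.0678 and 0 FPKM in KO and 0.563 and 0.301 FPKM in WT. Itgam was at 0.246 and 0.226 FPKM in KO and 0.423 and 0.553 FPKM in WT. Both were lower in KO without overlap, but below the filter and so not tested. Of 6 neutrophil markers 3 had a row, with sums of 1.39 to 1.72 FPKM in KO and 2.41 to 2.44 FPKM in WT, nearly all of it Ly6g. Of 5 mast cell and basophil markers 3 had a row, with sums of 0.778 to 1.51 FPKM in KO and 11.1 to 11.2 FPKM in WT. These were Mcpt8 at 0.0752 and 0.0727 FPKM in KO and 5.51 and 5.88 FPKM in WT and Kit at 1.397 and 0.633 FPKM in KO and 5.58 and 5.05 FPKM in WT, while Cpa3 was at most 0.166 FPKM. The 3 A1 copies summed to 29.5 ± 1.98 FPKM in KO and 158 ± 15.7 FPKM in WT (SD, n = 2 each), and the part of these cell types in the A1 values was not tested.

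Lymphoid markers also differed between the genotypes. Foxp3, of regulatory T cells, was at 0.128 and 0.228 FPKM in KO and 5.40 and 4.65 FPKM in WT. The 5 markers of these cells summed to 292 to 297 FPKM in KO and 336 to 369 FPKM in WT, most of it Il2ra. Klrb1c, of NK cells, was at 3.95 and 3.81 FPKM in KO and 14.7 and 14.4 FPKM in WT, and 3 of 5 NK markers had a row, with sums of 78.2 to 81.9 FPKM in KO and 94.1 to 105 FPKM in WT, most of it Eomes, which T cells also express. Ncr1, which defines NK cells, was at 0 in both KO libraries and at most 0.0821 FPKM in WT. Of 5 dendritic cell markers 4 had a row, with sums of 0.382 to 0.647 FPKM in KO and 3.18 to 3.38 FPKM in WT, and none was tested. B cell markers with a row (2 of 5) summed to 4.55 to 4.96 FPKM in KO and 3.93 to 4.49 FPKM in WT, nearly all of it Cd79b. The part of these cell types in the BCL2 family values was not tested.

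Markers of other tissues also stood lower in KO where they passed. The 5 stromal and endothelial markers summed to 13.3 FPKM in both KO libraries and 13.8 to 20.5 FPKM in WT, most of it Pecam1, which T cells also express and which did not pass (adjusted p = 0.278). The 5 epithelial and melanoma markers summed to 2.38 to 2.48 FPKM in KO and 7.07 to 7.80 FPKM in WT, most of it Epcam, which was lower (adjusted p = 0.00318) and the only one of them tested. The 4 globin genes summed to 4.31 to 5.07 FPKM in KO and 10.97 to 13.1 FPKM in WT, and the 3 that were tested, Hba-a1, Hba-a2 and Hbb-bt, were lower, calls that were lost without KO replicate 1 (adjusted p of up to 0.0943) or KO replicate 2 (up to 0.0810). The part of these tissues in the BCL2 family values was not tested. Of the 10 T cell markers, 4 were higher in KO (Cd2, Cd5, Lck and Trac) and 1 lower (Cd3d), against 15.4% and 13.0% of all tested genes.

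**Figure D5:**
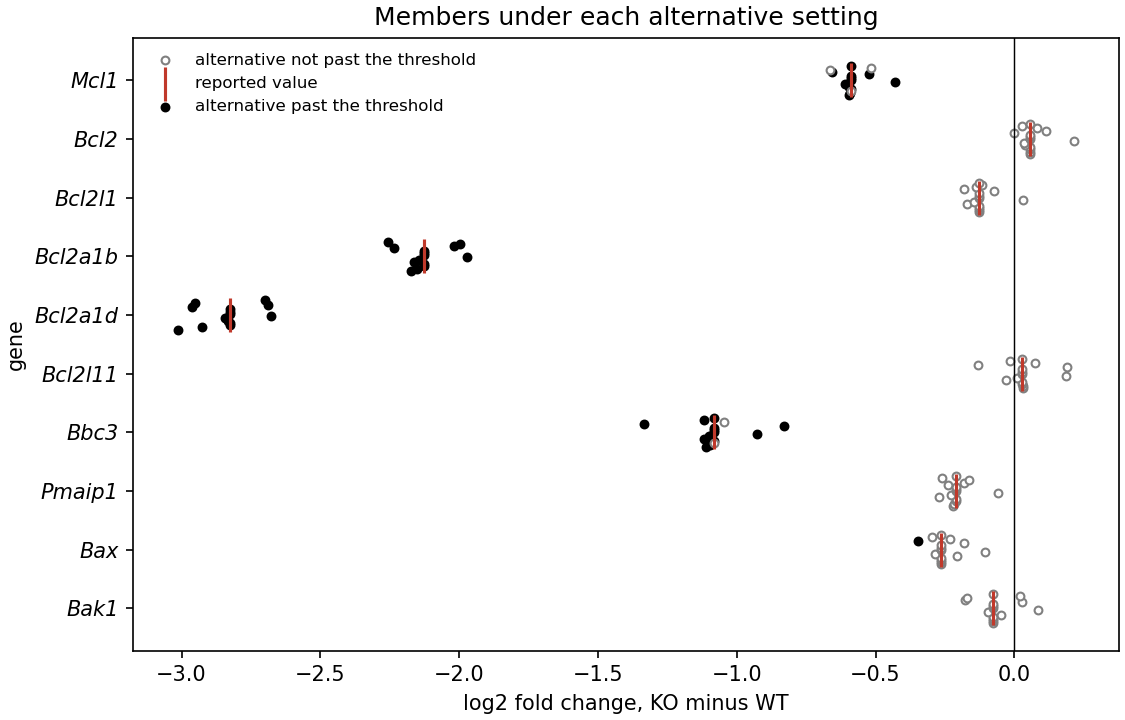
Log2 fold change, KO minus WT, of each gene as reported (red bar) and under each of its 14 or 15 alternative settings (dots, filled where past the threshold). The dots of Bcl2a1b stay between -2.26 and -1.97 and those of Bcl2a1d between -3.01 and -2.68, while those of Bcl2, Bcl2l1, Bcl2l11 and Bak1 lie on both sides of 0.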

How the data were processed

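The authors deposited FPKM values, 1 column per library and 1 row per Ensembl gene, made with HISAT and Cuffnorm on GRCm38 per the submitters' processing notes. Versions, annotation, strand and scaling options are not given in the sources used here, and no fragment counts were used. Symbols and positions came from GENCODE M21 (21011 of 21146 IDs matched). Values were transformed as log2(FPKM + 1) and fitted over all tested genes with limma 3.58.1 in R 4.3.3 (mean-variance trend, empirical Bayes, 2 residual and 3.39 prior degrees of freedom, two-sided). The fit was also run on simulated data with independent noise and few changed genes, which does not bear on whether these calls are right. The fragment scale was estimated from whole-number steps of low values in genes with 1 transcript, less 260 bases of length; 91.2% to 92.5% of low values lay within 0.1 of a whole number, and the scale need not equal sequencing depth. Tables and plots used Python 3.11.15, pandas 2.3.3, matplotlib 3.10.9 and Biopython 1.88. Named genes were Map4k1, the 10 family genes, the wider family and, from each list, the genes of lowest p, up to 4 that passed or 2 where none did; Trp53, Relb, Nfkb1, Rela, Foxo1, Foxo3 and single markers were added after their values were seen. Results for 2 of the genes this rule names are not reported here. The family genes and lists were chosen with earlier results of these data known. Alternatives covered the pseudocount, the filter, scaling, the variance model, the replicate block, each library left out and the A1 copies summed.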

Additional observations from a re-analysis of the deposited data

How the results depend on the processing

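Of 148 alternative values of the 10 genes, 134 kept their direction and their side of the threshold, 5 lost the call, 1 gained it and 8 changed sign, the last all for genes that had not passed. With equal totals these were Bcl2l1 (0.032) and Bak1 (0.085), and with quantile normalization Bcl2l11 (-0.029). With a library left out they were Bcl2 (-0.0027 without WT replicate 1, range -0.0027 to 0.11 over the 4), Bcl2l11 (-0.13 without WT replicate 2 and -0.02 without KO replicate 2, range -0.13 to 0.19) and Bak1 (0.029 without WT replicate 1 and 0.02 without KO replicate 2, range -0.18 to 0.029). Bcl2l12 (-0.10 to 0.30), Bik (-0.0086 to 0.22) and Cd68 (-0.45 to 0.11) also changed sign with a library left out. With no filter, 2 members, 8 surrounding genes and 622 of all genes were lower and 4 surrounding genes and 609 of all genes higher. Equal totals raised the median of all tested genes to 0.18 and gave 3475 higher genes, 21 of them in the surrounding lists; the log2 difference was then -0.53 for the anti-apoptotic and -0.086 for the pro-apoptotic sum, and with all A1 copies summed the anti-apoptotic one was -0.73. Leaving out each library in turn gave 2 to 5 lower members, 7 to 17 lower and 0 to 11 higher surrounding genes, and 390 to 1542 lower and 189 to 1693 higher genes in all. The lower ends came without KO replicate 1, and without KO replicate 2 there were 567 lower and 378 higher genes; these fits have fewer samples. Libraries that share a replicate number did not deviate together (correlation of their deviations over genes -0.03). This check rests on a single difference per genotype, so it cannot show whether the numbers pair the libraries. The replicate block left 4 members lower and 0 higher and called 1348 lower and 1453 higher genes in all.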
